A study of Mus musculus with 12 samples.

Results

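The subject is 40 genes of the extracellular matrix, namely collagens, basement membrane proteins, proteoglycans, elastic fibre and adhesive glycoproteins, and the enzymes, growth factors and receptors that make or remodel them. They were taken by symbol from 2 deposited expression tables of mouse kidney RNA, with 32199 genes in the table of the PAD4 set and 31719 in that of the IL-33 set, and all 40 had a row in both. The study sequenced 12 kidneys of male C57BL/6 mice aged 8 weeks, in 4 groups of 3: Padi4 knockouts and their wild types (labelled batch 1), and Il33 knockouts and their wild types (batch 2). Every animal, wild types included, had been through the same contrast-induced acute kidney injury. After removal of 1 kidney and 3 weeks of recovery they were kept without water for 24 h, given furosemide into the peritoneum 20 min before iodixanol, an iodinated contrast agent, into the tail vein, and killed 24 h later. No uninjured kidneys were analysed here. Padi4 encodes the histone-citrullinating enzyme PAD4 of neutrophils, and Il33 encodes IL-33, an alarmin cytokine of barrier and stromal cells. The labels do not say whether the alleles are constitutive or how the lines were made.

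The matrix of the kidney has an interstitial part, in which fibrillar collagens, type VI collagen, proteoglycans and fibronectin are laid down mainly by fibroblasts and pericytes, and a basement membrane part under tubules, vessels and the glomerular filter. Type IV collagen forms the network of basement membranes: the alpha 1 and alpha 2 chains are found in most basement membranes, while the alpha 3, alpha 4 and alpha 5 chains form the mature network of the glomerulus and of some tubules. After injury, TGF-beta and mechanical signals raise the transcription of interstitial matrix genes in stromal cells, lysyl oxidases cross-link the fibres, and metalloproteinases and their inhibitors set the turnover.

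Each table gives FPKM (fragments per kilobase of transcript, scaled to the mapped fragments of the library), normalized within itself, so levels are compared only within a table. Changes are knockout minus wild type on log2(FPKM + 1), tested with limma at a Benjamini-Hochberg adjusted p under 0.05 over all genes of the table with a mean of at least 0.5 FPKM. Summed over all genes, the libraries held 700601 to 812981 FPKM in the PAD4 set, against 385124 to 420279 FPKM in the IL-33 set, and the depth in reads is unknown. Transcripts of the mitochondrial genome made up 52.0% to 60.0% of this sum in the PAD4 set and 24.1% to 29.2% in the IL-33 set. The lowest share of the PAD4 set was in PAD4 knockout library 1. The part of this share in the results was not tested. Padi4 was at 0.217, 0.497 and 0.187 FPKM in PAD4 knockout kidneys, against 0.704, 1.06 and 1.67 FPKM in wild-type kidneys. Some Padi4 transcript thus remained in every PAD4 knockout library. In the IL-33 set Padi4 was at 0.0107, 0 and 0 FPKM in labelled IL-33 knockout kidneys, against 0, 0 and 0.0220 FPKM in wild-type kidneys. The part of the knockout in the lower Padi4 of the PAD4 set was not tested. Il33 was at 1.14, 0.616 and 1.02 FPKM in labelled IL-33 knockout kidneys, against 1.71, 1.13 and 3.64 FPKM in wild-type kidneys, so the 2 groups overlap in the gene that the label names, and those kidneys are called labelled IL-33 knockout here. In the PAD4 set Il33 was lower without overlap, at 0.889, 1.58 and 1.28 FPKM in PAD4 knockout kidneys, against 3.57, 5.29 and 3.28 FPKM in wild-type kidneys.

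In the PAD4 set the libraries held transcripts that mark tissues other than kidney, in different amounts. The 16 colon epithelium markers summed to 156 to 400.1 FPKM in PAD4 knockout kidneys and 707 to 1183 FPKM in wild-type kidneys, the 12 lung epithelium markers to 44.1 to 218 FPKM in PAD4 knockout kidneys and 302 to 862 FPKM in wild-type kidneys, and the 8 markers of uterus and oviduct to 14.1 to 77.9 FPKM in PAD4 knockout kidneys and 109 to 349 FPKM in wild-type kidneys. The 8 proximal tubule markers, which define kidney cortex, summed to 216 to 584 FPKM in PAD4 knockout kidneys and 83.1 to 137 FPKM in wild-type kidneys. In the wild-type libraries of that set the colon markers stood above the kidney's own tubule markers. None of these 44 markers was at 0 in all 6 libraries of the PAD4 set. In the IL-33 set, 10 of the 16 colon markers and 7 of the 12 lung markers are listed, with sums of 5.90 to 8.20 FPKM in labelled IL-33 knockout kidneys and 20.5 to 41.7 FPKM in wild-type kidneys for colon and 1.41 to 2.13 FPKM in labelled IL-33 knockout kidneys and 2.75 to 4.90 FPKM in wild-type kidneys for lung, and Muc2 and Sftpb, which define goblet cells and lung surfactant cells, stayed under 0.1 FPKM in all 6. The colon and lung sums did not overlap in the IL-33 set either, the labelled knockouts being lower, and their part in the labelled IL-33 results was not tested. All animals were male, so what the uterus and oviduct list marks in these kidneys is unknown. The stroma of colon and lung makes many of the matrix genes described here. The sums of the colon, lung, and uterus and oviduct lists did not overlap between the PAD4 knockouts and their wild types. The part of the RNA behind these lists and that of the knockout in the PAD4 results cannot be told apart.

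The matrix genes as a group were lower in PAD4 knockout kidneys and higher in labelled IL-33 knockout kidneys, each against its own wild type. In the PAD4 comparison 39 members were tested (Col12a1, at 0.314, 0.441 and 0.375 FPKM in PAD4 knockout kidneys, against 0.290, 0.991 and 0.377 FPKM in wild-type kidneys, was too low). Of these, 20 fell and 2 rose, where 8.79% of the 13986 genes tested fell and 8.89% rose. The median member changed by -1.01 on the log2 scale, against 0.016 for all genes. In 21 of the 39, every knockout library lay below every wild-type library, which held for 15.8% of all genes tested, and in 3 every knockout library lay above, against 17.2% of all genes. In the labelled IL-33 comparison 39 members were tested (Postn, at 0.669, 0.562 and 0.526 FPKM in labelled IL-33 knockout kidneys, against 0.109, 0.133 and 0.453 FPKM in wild-type kidneys, was too low). There 22 rose and 5 fell, where 22.2% of the 14513 genes tested rose and 16.8% fell, and the median member changed by 0.68, against 0.044 for all genes. In 22 of the 39 every labelled knockout library lay above every wild type, against 30.2% of all genes, and in 7 below, against 24.3%. In a bulk sample, fewer cells of a type and less RNA per cell cannot be told apart.

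The difference between both changes was tested directly as (labelled IL-33 knockout minus its wild type) minus (PAD4 knockout minus its wild type), over 13010 genes tested in both tables. Of 38 members tested, 19 had a higher value in the labelled IL-33 comparison and 0 a lower one, where 6.18% and 6.23% of all genes did so by the same limma threshold, and none of the 38 was lower at an unadjusted p under 0.05. The median difference of the members was 1.31, against -0.023 for all genes. All 12 of the 38 that fell in PAD4 knockouts and rose in labelled IL-33 knockouts were among those 19, where 0.968% of all genes tested in both tables had this pair of calls, and 0 members had the reverse pair, against 0.50% of all genes. A further 4 members passed the threshold in the same direction in both comparisons. Col4a3 and Col4a4 were higher in both, as were 5.03% of all genes, and Lox and Tgfb1 were lower in both, as were 2.10% of all genes. The labels put the 2 knockouts in separate batches, so a difference between the knockouts and a difference between the batches cannot be told apart.

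**Figure D1:**
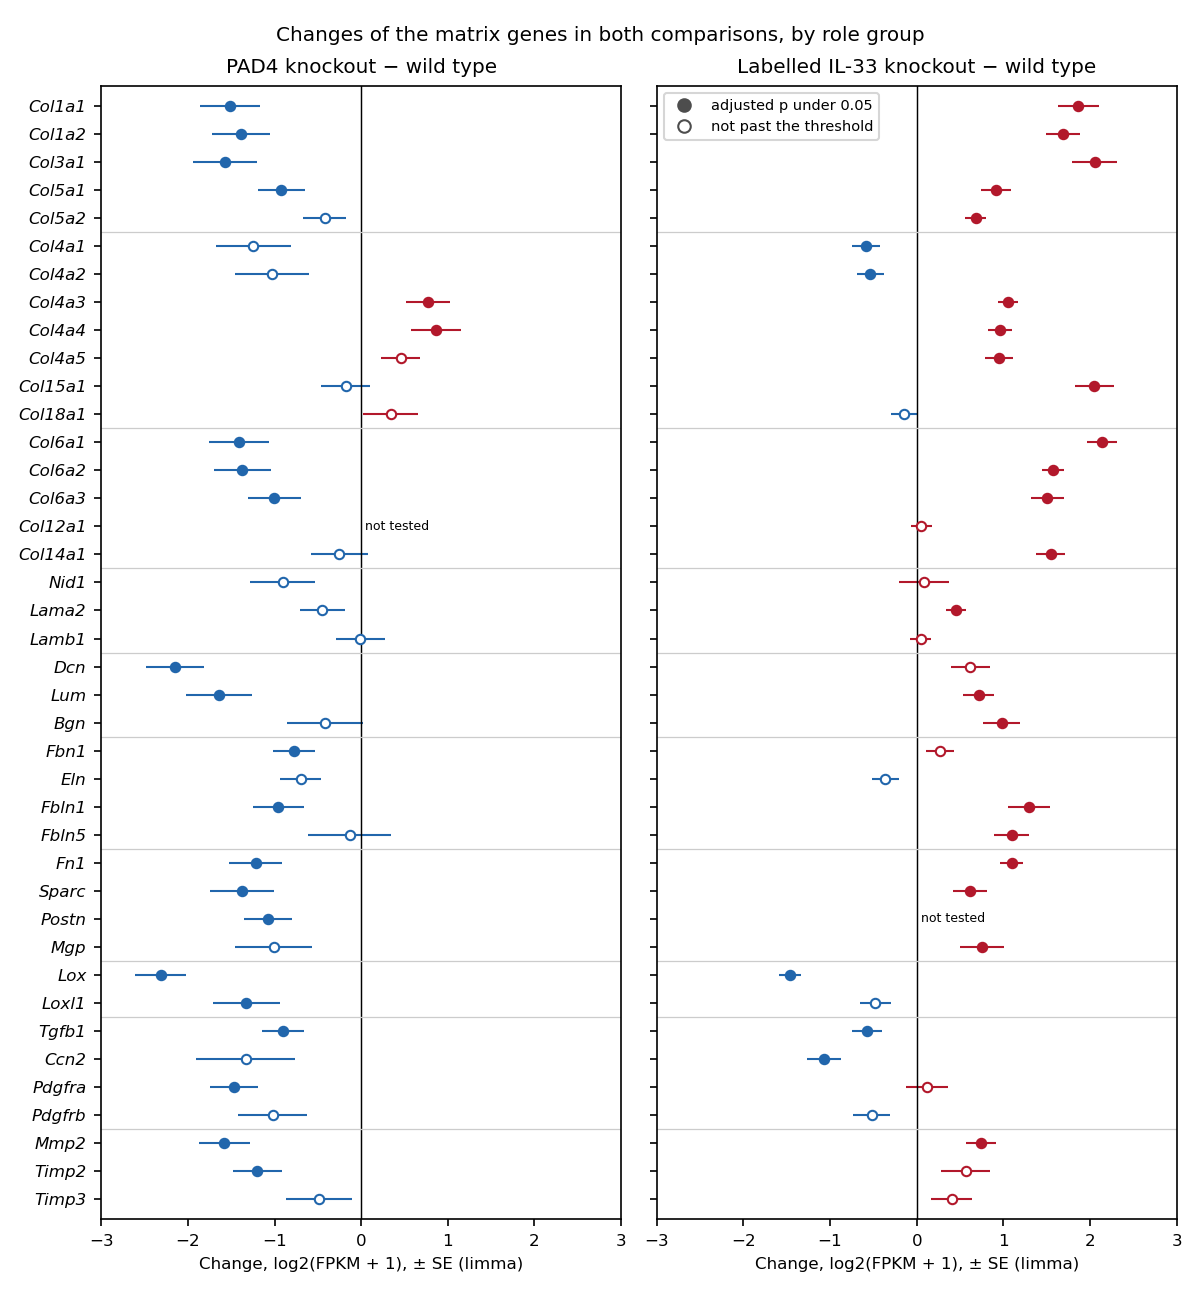
Change of each of the 40 matrix genes, knockout minus wild type on log2(FPKM + 1) with its limma standard error, in the PAD4 comparison (left) and the labelled IL-33 comparison (right). Rows are grouped by role and filled points passed an adjusted p of 0.05; 20 members fell and 2 rose on the left, 5 fell and 22 rose on the right.

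The PAD4 counts changed when single libraries were left out and when a score of other-tissue markers entered the fit. With a colon and lung marker score as a covariate, 0 members passed in either direction by limma, 0 had an unadjusted p under 0.05, the median member changed by 0.14 and 19 members had the opposite sign, while 67 genes of the whole table rose and 16 fell, against 1243 and 1230 without it. The fit took its score over all listed markers of both tissues. Over 26 of these markers the score was 1.94, 3.41 and 2.38 in PAD4 knockout kidneys, against 3.90, 4.68 and 4.47 in wild-type kidneys, with no overlap. Of the variance of the score over 26 markers, 76.5% lay between the groups. The median standard error of the members grew 1.90 times, and the fit cannot separate the score from the knockout. Without the filter on low values 0 genes of the whole table passed, and 20 members were lower and 3 higher at an unadjusted p under 0.05. The count of members that fell was 10 without wild-type library 1 and 10 without wild-type library 3, where the genes of the whole table that fell went down too, to 712 and 515. Each fit without a library estimates the spread of all genes anew, so an adjusted p can fall while the change shrinks. A call gained or lost in such a fit therefore does not rest on the gene's own values alone. The members were not highest in the same wild-type library: library 2 was highest for 23 of the 40 and library 3 for 14, while PAD4 knockout library 1 was highest for 3 and lowest for 31. Among the labelled IL-33 knockouts, library 3 was highest for 20 members, and wild-type library 2 was lowest for 19.

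Fibrillar collagens are the rope-forming collagens of the interstitium. All 5 rose in labelled IL-33 knockout kidneys, 4 of 5 fell in PAD4 knockout kidneys, and all 5 differed between the comparisons. Col1a1, the alpha 1 chain of type I collagen, was at 4.70, 12.6 and 7.55 FPKM in PAD4 knockout kidneys, against 17.5, 21.2 and 36.6 FPKM in wild-type kidneys, a change of -1.51 ± 0.35 (SE; adjusted p = 0.00563). Col1a1 in the IL-33 set was at 9.15, 9.44 and 11.9 FPKM in labelled IL-33 knockout kidneys, against 1.65, 1.36 and 3.5 FPKM in wild-type kidneys, a change of 1.87 ± 0.24 (SE; adjusted p = 0.000944). The groups did not overlap in either set, the knockouts lying below in the first and above in the second, and the difference of both changes was 3.38 ± 0.46 (SE; adjusted p = 0.000599). Its partner Col1a2, which supplies the alpha 2 chain, was at 3.82, 10.2 and 6.48 FPKM in PAD4 knockout kidneys, against 13.1, 17.9 and 26.0 FPKM in wild-type kidneys. Col1a2 in the IL-33 set was at 8.40, 8.42 and 9.71 FPKM in labelled IL-33 knockout kidneys, against 1.63, 1.57 and 3.16 FPKM in wild-type kidneys. The changes of Col1a2 were -1.39 ± 0.33 (SE; adjusted p = 0.00739) in PAD4 knockouts and 1.69 ± 0.19 (SE; adjusted p = 0.000568) in labelled IL-33 knockouts. Within a library the ratio of Col1a1 to Col1a2 stayed between 0.867 and 1.41 in all 12 libraries.

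Col3a1, the single chain of type III collagen that co-assembles with type I, had the largest change of the 5 in each comparison. It was at 3.92, 13.9 and 6.38 FPKM in PAD4 knockout kidneys, against 16.9, 21.0 and 35.2 FPKM in wild-type kidneys, a change of -1.57 ± 0.37 (SE; adjusted p = 0.00650). Col3a1 in the IL-33 set was at 8.04, 7.77 and 9.88 FPKM in labelled IL-33 knockout kidneys, against 1.00, 0.712 and 2.52 FPKM in wild-type kidneys, a change of 2.05 ± 0.26 (SE; adjusted p = 0.000835). Every knockout library again lay on one side of every wild type in each set, with a difference of both changes of 3.63 ± 0.52 (SE; adjusted p = 0.000702). Type V collagen, which starts fibrils and limits their width, was lower in level. Col5a1 averaged 2.01 ± 0.974 FPKM in PAD4 knockout kidneys and 4.63 ± 1.49 FPKM in wild-type kidneys (SD, n = 3 each), a change of -0.92 ± 0.27 (SE; adjusted p = 0.0229) by limma. Col5a1 in the IL-33 set averaged 2.21 ± 0.203 FPKM in labelled IL-33 knockout kidneys and 0.729 ± 0.403 FPKM in wild-type kidneys, a change of 0.91 ± 0.17 (SE; adjusted p = 0.00502). Col5a2 was at 3.42, 2.77 and 2.14 FPKM in PAD4 knockout kidneys, against 2.77, 4.89 and 4.66 FPKM in wild-type kidneys, with overlapping groups and a change of -0.42 ± 0.25 (SE; adjusted p = 0.268). Col5a2 in the IL-33 set was at 4.21, 3.99 and 4.72 FPKM in labelled IL-33 knockout kidneys, against 2.20, 2.60 and 2.13 FPKM in wild-type kidneys, a change of 0.68 ± 0.12 (SE; adjusted p = 0.00330). Col5a1 missed the PAD4 threshold without PAD4 knockout library 1 (adjusted p = 0.121). Col3a1 and Col5a1 missed the PAD4 threshold without wild-type library 1 (adjusted p = 0.0503 and 0.0581). Col1a1, Col1a2, Col3a1 and Col5a1 missed the PAD4 threshold without wild-type library 3 (adjusted p = 0.0588, 0.0684, 0.0715 and 0.125).

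The promoter windows of Col1a2 (type I collagen) and Col3a1 (type III collagen) differ in the motif letters they hold. They are shown because both types changed in opposite directions in the 2 comparisons. Of the 40 members, 25 matched RefSeq promoter windows of build GRCm38.p6, each running 250 bases before to 50 bases after the transcript start. Capitals mark every match, on either strand, to TATAAA (the TATA box), to CCAAT (the NF-Y box), to GGGCGG (a GC box), to CAGAC (the core letters of a SMAD element) or to GGAATG (those of a TEAD element). The Col1a2 window is chr6:4505368-4505667 on the plus strand, and the Col3a1 window is chr1:45311288-45311587 on the plus strand.
Col1a2: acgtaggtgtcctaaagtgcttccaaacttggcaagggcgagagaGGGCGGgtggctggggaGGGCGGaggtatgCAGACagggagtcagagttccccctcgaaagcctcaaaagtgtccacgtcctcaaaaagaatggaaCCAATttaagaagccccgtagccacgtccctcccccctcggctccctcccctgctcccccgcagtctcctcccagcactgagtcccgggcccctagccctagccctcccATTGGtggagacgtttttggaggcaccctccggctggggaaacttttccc
Col3a1: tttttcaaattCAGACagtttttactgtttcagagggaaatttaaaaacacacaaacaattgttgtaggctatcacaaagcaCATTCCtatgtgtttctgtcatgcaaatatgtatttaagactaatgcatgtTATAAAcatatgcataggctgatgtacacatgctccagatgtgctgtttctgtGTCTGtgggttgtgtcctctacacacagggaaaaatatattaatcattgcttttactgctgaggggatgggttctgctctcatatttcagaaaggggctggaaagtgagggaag
The Col1a2 window held 2 GC boxes, 2 NF-Y boxes and 1 SMAD core and no TATAAA match. The Col3a1 window held 1 TATAAA match, at position -117 from the start, 1 TEAD core and 2 SMAD cores. It held neither an NF-Y box nor a GC box. Over the 25 matched members, TATAAA occurred in 2, CCAAT in 10, GGGCGG in 17, CAGAC in 16 and GGAATG in 4. Of all 32851 windows, 13.6% held TATAAA, 37.4% CCAAT, 35.7% GGGCGG, 49.6% CAGAC and 14.7% GGAATG. A match describes letters in a window and does not show a bound site.

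Type VI collagen builds beaded microfibrils around cells, and its 3 chains followed the fibrillar collagens. Col6a1 was at 7.30, 18.0 and 10.8 FPKM in PAD4 knockout kidneys, against 23.3, 30.0 and 45.6 FPKM in wild-type kidneys, a change of -1.41 ± 0.35 (SE; adjusted p = 0.00830). Col6a1 in the IL-33 set was at 10.1, 9.97 and 9.73 FPKM in labelled IL-33 knockout kidneys, against 1.14, 1.19 and 2.27 FPKM in wild-type kidneys, a change of 2.14 ± 0.17 (SE; adjusted p = 0.000139). Its difference of both changes, 3.55 ± 0.41 (SE; adjusted p = 0.000208), was the second largest of the members after that of Col3a1. Col6a2 was at 2.96, 8.06 and 4.18 FPKM in PAD4 knockout kidneys, against 10.3, 12.1 and 20.9 FPKM in wild-type kidneys. Col6a2 in the IL-33 set was at 3.58, 3.20 and 4.10 FPKM in labelled IL-33 knockout kidneys, against 0.447, 0.519 and 0.709 FPKM in wild-type kidneys. Col6a3 was at 1.48, 4.66 and 2.75 FPKM in PAD4 knockout kidneys, against 4.67, 5.99 and 9.68 FPKM in wild-type kidneys. Col6a3 in the IL-33 set was at 2.69, 2.46 and 3.92 FPKM in labelled IL-33 knockout kidneys, against 0.235, 0.289 and 0.715 FPKM in wild-type kidneys. Neither gene's groups overlapped in either set. Col6a2 changed by -1.37 ± 0.33 (SE; adjusted p = 0.00713) in PAD4 knockouts and by 1.57 ± 0.13 (SE; adjusted p = 0.000143) in labelled IL-33 knockouts. Col6a3 changed by -1.0 ± 0.30 (SE; adjusted p = 0.0279) in PAD4 knockouts and by 1.51 ± 0.19 (SE; adjusted p = 0.000772) in labelled IL-33 knockouts. The ratio of Col6a1 to Col6a2 within a library lay between 2.18 and 3.20. Col6a3 missed the PAD4 threshold without PAD4 knockout library 1 (adjusted p = 0.112). Col6a3 missed the PAD4 threshold without wild-type library 1 (adjusted p = 0.0698). Col6a1, Col6a2 and Col6a3 missed the PAD4 threshold without wild-type library 3 (adjusted p = 0.0736, 0.0681 and 0.161).

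Types XII and XIV decorate the surface of fibrils. Col14a1 was at 1.34, 2.14 and 3.92 FPKM in PAD4 knockout kidneys, against 1.87, 6.50 and 1.83 FPKM in wild-type kidneys, with wild-type library 2 above the rest and a change of -0.25 ± 0.33 (SE; adjusted p = 0.671) that did not pass. Col14a1 in the IL-33 set was at 4.82, 4.81 and 6.65 FPKM in labelled IL-33 knockout kidneys, against 1.05, 0.941 and 1.59 FPKM in wild-type kidneys, a change of 1.55 ± 0.17 (SE; adjusted p = 0.000424), with no overlap. The difference of both changes was 1.80 ± 0.47 (SE; adjusted p = 0.0212) in the limma test, and it missed the threshold without PAD4 knockout library 1 (adjusted p = 0.0548) or labelled IL-33 knockout library 3 (adjusted p = 0.0544). Col12a1 was at 0.925, 0.925 and 1.05 FPKM in labelled IL-33 knockout kidneys, against 0.776, 0.769 and 1.16 FPKM in wild-type kidneys, with overlapping groups.

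**Figure D2:**
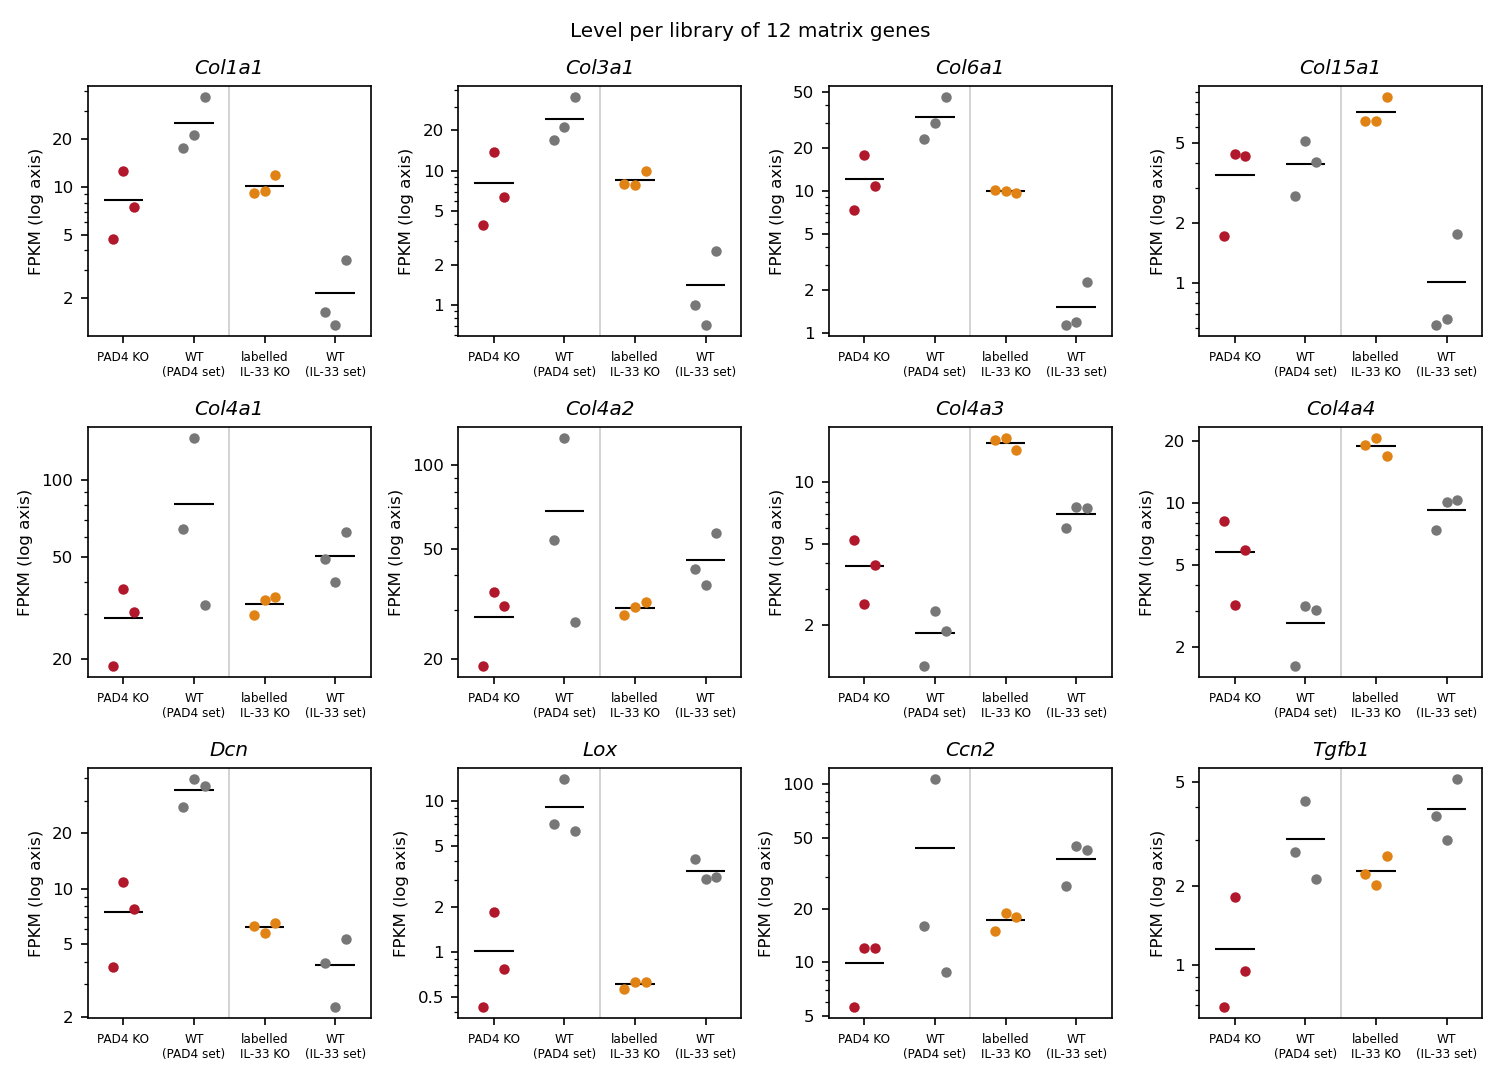
FPKM in each library (log axis, 1 point a library, line at the group mean) of 12 matrix genes in PAD4 knockout and wild-type kidneys of the PAD4 set and labelled IL-33 knockout and wild-type kidneys of the IL-33 set. Col1a1, Col3a1 and Col6a1 lie lower in PAD4 knockouts and higher in labelled IL-33 knockouts than in their wild types, while Lox and Tgfb1 lie lower in both knockouts and Col4a3 and Col4a4 higher in both.

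Basement membrane collagens did not move as 1 block. The 2 chains of the common type IV network were lower in labelled IL-33 knockouts, while the chains of the glomerular network were higher. Col4a1 was at 29.6, 34.1 and 34.7 FPKM in labelled IL-33 knockout kidneys, against 48.9, 39.8 and 62.4 FPKM in wild-type kidneys, a change of -0.58 ± 0.16 (SE; adjusted p = 0.0240). Col4a2 was at 28.7, 30.9 and 32.0 FPKM in labelled IL-33 knockout kidneys, against 42.3, 37.0 and 56.8 FPKM in wild-type kidneys, a change of -0.53 ± 0.15 (SE; adjusted p = 0.0275). Every labelled knockout library lay below every wild type for both genes, by a small margin. Both calls were weak: Col4a1 missed the labelled IL-33 threshold without labelled IL-33 knockout library 1, 2 or 3, or wild-type library 1 (adjusted p = 0.0859, 0.0562, 0.0554 and 0.0531, in that order). Col4a2 missed the labelled IL-33 threshold without labelled IL-33 knockout library 1, 2 or 3 (adjusted p = 0.0920, 0.0709 and 0.0652, in that order). Col4a1 in the PAD4 set was at 18.7, 37.5 and 30.6 FPKM in PAD4 knockout kidneys, against 64.4, 146 and 32.4 FPKM in wild-type kidneys, and Col4a2 at 18.9, 34.8 and 31.0 FPKM in PAD4 knockout kidneys, against 53.5, 125 and 27.1 FPKM in wild-type kidneys. Wild-type library 2 stood far above the others for both chains, wild-type library 3 lay among the knockouts, and the changes did not pass, at -1.25 ± 0.43 (SE; adjusted p = 0.0528) for Col4a1 and -1.03 ± 0.43 (SE; adjusted p = 0.108) for Col4a2. Col4a1 was close to the threshold, and most refits moved it across. Col4a1 passed the PAD4 threshold without PAD4 knockout library 1, 2 or 3, or wild-type library 3 (adjusted p = 0.0349, 0.00111, 0.0455 and 0.0298, in that order). Its change without PAD4 knockout library 1 was smaller, at -0.97, although it passed. Col4a2 passed the PAD4 threshold without PAD4 knockout library 2 or wild-type library 3 (adjusted p = 0.00896 and 0.0462, in that order). Without wild-type library 2 the change shrank to -0.70 (adjusted p = 0.324) for Col4a1 and -0.47 (adjusted p = 0.572) for Col4a2.

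The alpha 3 chain gene Col4a3, mutated in Alport syndrome together with Col4a4 and Col4a5, was at 16.1, 16.4 and 14.3 FPKM in labelled IL-33 knockout kidneys, against 5.98, 7.60 and 7.46 FPKM in wild-type kidneys, a change of 1.06 ± 0.12 (SE; adjusted p = 0.000488). Col4a4 was at 19.2, 20.6 and 16.9 FPKM in labelled IL-33 knockout kidneys, against 7.41, 10.1 and 10.3 FPKM in wild-type kidneys, a change of 0.96 ± 0.14 (SE; adjusted p = 0.00166). Col4a5 was at 5.67, 6.33 and 6.31 FPKM in labelled IL-33 knockout kidneys, against 1.90, 3.11 and 3.13 FPKM in wild-type kidneys, a change of 0.95 ± 0.16 (SE; adjusted p = 0.00288). For the 3 chains every labelled knockout library lay above every wild type. In the PAD4 set the same chains lay on the same side. Col4a3 was at 5.19, 2.52 and 3.95 FPKM in PAD4 knockout kidneys, against 1.26, 2.35 and 1.87 FPKM in wild-type kidneys, a change of 0.77 ± 0.25 (SE; adjusted p = 0.0379). Col4a4 was at 8.22, 3.18 and 5.91 FPKM in PAD4 knockout kidneys, against 1.61, 3.16 and 3.03 FPKM in wild-type kidneys, a change of 0.87 ± 0.29 (SE; adjusted p = 0.0440). Col4a5 was at 4.07, 2.89 and 2.83 FPKM in PAD4 knockout kidneys, against 1.76, 1.96 and 2.57 FPKM in wild-type kidneys, and its change of 0.46 ± 0.22 (SE; adjusted p = 0.177) did not pass although the groups did not overlap. The lowest knockout and highest wild-type libraries almost touched for Col4a4. Col4a3 missed the PAD4 threshold without PAD4 knockout library 1 or 3, or wild-type library 1 or 3 (adjusted p = 0.167, 0.0823, 0.175 and 0.0990, in that order). Col4a4 missed the PAD4 threshold without PAD4 knockout library 1 or 3, or wild-type library 1 or 3 (adjusted p = 0.166, 0.0832, 0.236 and 0.0940, in that order). The differences between the comparisons were 0.29 ± 0.29 (SE; adjusted p = 0.572) for Col4a3 and 0.09 ± 0.37 (SE; adjusted p = 0.901) for Col4a4, which did not pass, and this does not show that the changes were equal.

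The balance between both networks can be read within each library as the ratio of Col4a1 to Col4a3, a description of a pair chosen after its values were seen. It was 3.61, 14.9 and 7.73 in PAD4 knockout kidneys, against 51.2, 61.9 and 17.3 in wild-type kidneys. In the IL-33 set it was 1.83, 2.08 and 2.42 in labelled IL-33 knockout kidneys, against 8.18, 5.23 and 8.37 in wild-type kidneys. The knockout ratios lay below the wild-type ratios in both sets, with no overlap. Podocyte markers, which mark the cells that make the alpha 3 to alpha 5 network in the glomerulus, summed to 57.6 to 74.8 FPKM in labelled IL-33 knockout kidneys and 39.4 to 62.4 FPKM in wild-type kidneys in the IL-33 set, with 4 of 7 markers higher and overlapping sums. In the PAD4 set they summed to 3.66 to 5.27 FPKM in PAD4 knockout kidneys and 4.83 to 10.6 FPKM in wild-type kidneys, with 0 of the 4 tested passing. Proximal tubule markers moved in both sets, with 8 of 8 higher in PAD4 knockouts and 6 of 8 in labelled IL-33 knockouts (1890 to 2631 FPKM in labelled IL-33 knockout kidneys and 735 to 1045 FPKM in wild-type kidneys). Of all genes tested, 8.89% rose in PAD4 knockouts and 22.2% in labelled IL-33 knockouts. The part of either cell type in these results was not tested.

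Col4a1 and Col4a2 stand head to head on mouse chromosome 8, and their promoters are shown because their transcripts kept a nearly constant ratio. In GRCm38.p6 their starts lie 21 bases apart on opposite strands, so the 2 windows share 78 bases, marked by capitals: chr8:11312777-11313076 on the minus strand for Col4a1 and chr8:11312555-11312854 on the plus strand for Col4a2, each 5′ to 3′ in its own direction.
Col4a1: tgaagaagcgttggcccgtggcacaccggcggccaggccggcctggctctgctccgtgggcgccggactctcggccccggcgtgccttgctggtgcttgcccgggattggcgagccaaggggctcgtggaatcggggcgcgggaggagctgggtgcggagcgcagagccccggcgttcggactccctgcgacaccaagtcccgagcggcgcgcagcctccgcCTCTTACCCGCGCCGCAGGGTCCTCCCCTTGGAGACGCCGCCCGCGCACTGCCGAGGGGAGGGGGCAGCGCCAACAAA
Col4a2: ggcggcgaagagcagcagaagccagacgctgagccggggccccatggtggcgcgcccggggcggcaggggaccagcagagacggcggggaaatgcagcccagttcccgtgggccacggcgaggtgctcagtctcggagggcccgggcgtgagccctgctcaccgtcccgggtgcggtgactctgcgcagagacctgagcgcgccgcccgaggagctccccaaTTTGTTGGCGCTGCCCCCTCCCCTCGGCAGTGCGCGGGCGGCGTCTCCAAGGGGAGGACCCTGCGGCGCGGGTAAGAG
The shared stretch read from one side is the reverse complement of the other. The ratio of Col4a1 to Col4a2 was 0.993, 1.08 and 0.986 in PAD4 knockout kidneys, against 1.21, 1.17 and 1.19 in wild-type kidneys, and in the IL-33 set 1.03, 1.10 and 1.09 in labelled IL-33 knockout kidneys, against 1.16, 1.08 and 1.10 in wild-type kidneys. Over all 12 libraries it lay between 0.986 and 1.21, while Col4a1 itself ran between 18.7 and 146 FPKM in the PAD4 set. The PAD4 groups did not overlap in this ratio, the knockouts being lower, whereas the groups of the IL-33 set did.

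**Figure D3:**
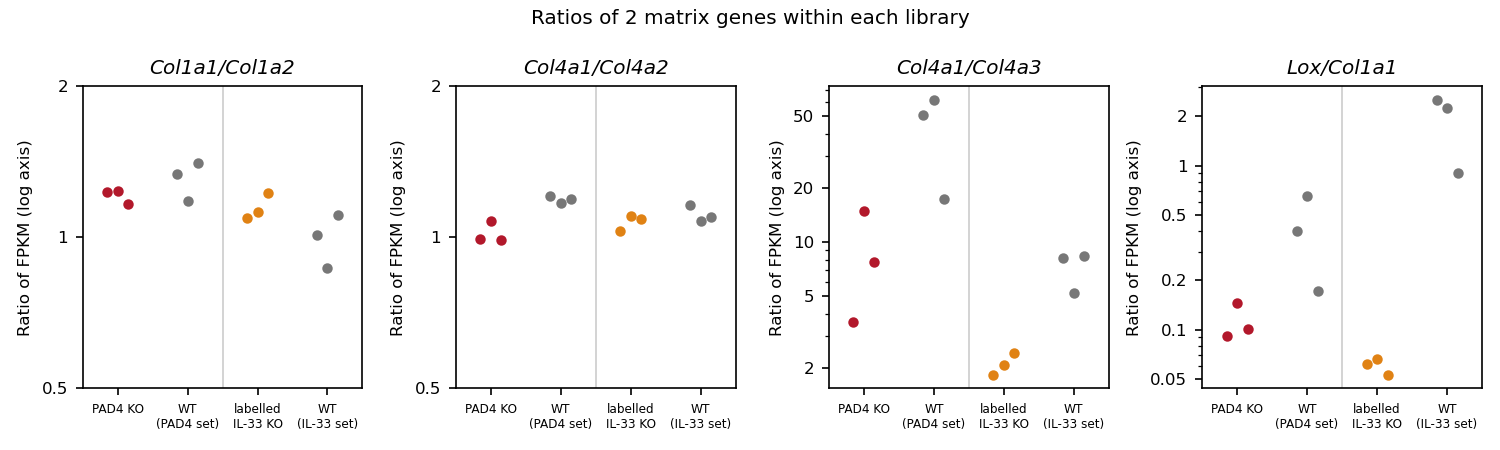
Ratio of FPKM of 2 matrix genes within each library (log axis, 1 point a library) in the same 4 groups. Col1a1/Col1a2 and Col4a1/Col4a2 stayed between 0.867 and 1.41, while Col4a1/Col4a3 and Lox/Col1a1 were lower in every knockout library than in every wild-type library of its set.

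Col15a1 and Col18a1 encode collagens that link basement membranes to the interstitium, the second being the source of endostatin. Col15a1 was at 6.50, 6.43 and 8.48 FPKM in labelled IL-33 knockout kidneys, against 0.619, 0.664 and 1.76 FPKM in wild-type kidneys, a change of 2.05 ± 0.22 (SE; adjusted p = 0.000447), one of the largest rises among the members. Col15a1 in the PAD4 set was at 1.72, 4.42 and 4.33 FPKM in PAD4 knockout kidneys, against 2.72, 5.13 and 4.03 FPKM in wild-type kidneys, with overlap and a change of -0.18 ± 0.28 (SE; adjusted p = 0.735) that turned positive without PAD4 knockout library 1. The difference of both changes was 2.23 ± 0.39 (SE; adjusted p = 0.00240). Col18a1 was at 21.6, 28.3 and 24.0 FPKM in PAD4 knockout kidneys, against 17.6, 29.1 and 13.6 FPKM in wild-type kidneys. Col18a1 in the IL-33 set was at 31.9, 36.0 and 36.0 FPKM in labelled IL-33 knockout kidneys, against 33.3, 35.0 and 48.4 FPKM in wild-type kidneys. Its groups overlapped in both sets and neither change passed (0.34, adjusted p = 0.523 in PAD4 knockouts and -0.15, adjusted p = 0.461 in labelled IL-33 knockouts).

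Of 3 glycoproteins that tie basement membranes together, 0 passed in the PAD4 comparison and 1 rose in labelled IL-33 knockouts. Lama2, the laminin alpha 2 chain of muscle and mesangium, was at 0.972, 0.973 and 1.07 FPKM in labelled IL-33 knockout kidneys, against 0.368, 0.407 and 0.642 FPKM in wild-type kidneys, a change of 0.45 ± 0.12 (SE; adjusted p = 0.0195). Lama2 missed the labelled IL-33 threshold without labelled IL-33 knockout library 1, 2 or 3 (adjusted p = 0.0639, 0.0602 and 0.0782, in that order). Lama2 in the PAD4 set was at 0.440, 0.625 and 0.996 FPKM in PAD4 knockout kidneys, against 0.936, 2.86 and 0.585 FPKM in wild-type kidneys, a change of -0.45 ± 0.26 (SE; adjusted p = 0.253). Nid1, which bridges laminin and type IV collagen, was at 2.81, 6.84 and 7.09 FPKM in PAD4 knockout kidneys, against 9.80, 21.3 and 5.61 FPKM in wild-type kidneys (limma change -0.91, adjusted p = 0.107), and at 8.55, 7.27 and 10.2 FPKM in labelled IL-33 knockout kidneys, against 8.81, 4.66 and 12.4 FPKM in wild-type kidneys (change 0.08, adjusted p = 0.840). Lamb1, the laminin beta 1 chain, averaged 10.2 ± 0.829 FPKM in PAD4 knockout kidneys and 10.5 ± 3.27 FPKM in wild-type kidneys, with a change of -0.01, and 16.5 ± 0.942 FPKM in labelled IL-33 knockout kidneys and 16 ± 2.48 FPKM in wild-type kidneys, with a change of 0.05 (SD, n = 3 each). For Nid1 and Lamb1 the groups overlapped in both sets. Nid1 passed the PAD4 threshold without PAD4 knockout library 2 (adjusted p = 0.00578). Without wild-type library 2 the PAD4 change of Nid1 was -0.44 (adjusted p = 0.487). Without wild-type library 3 of the PAD4 set Lama2 passed the test of the difference (1.16, adjusted p = 0.0393).

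Decorin, lumican and biglycan are small leucine-rich proteoglycans that coat fibrils, and biglycan also signals when released. Dcn was at 3.72, 10.8 and 7.72 FPKM in PAD4 knockout kidneys, against 27.7, 39.3 and 36.0 FPKM in wild-type kidneys, a change of -2.15 ± 0.33 (SE; adjusted p = 0.000366), and kept its call when any single library was left out. Dcn in the IL-33 set was at 6.25, 5.71 and 6.51 FPKM in labelled IL-33 knockout kidneys, against 3.93, 2.26 and 5.28 FPKM in wild-type kidneys, above without overlap, but the change of 0.62 ± 0.22 (SE; adjusted p = 0.0613) did not pass. Dcn passed the labelled IL-33 threshold without wild-type library 3 (adjusted p = 0.0162). Its change there was 0.36 (adjusted p = 0.0818) without wild-type library 2. The difference of both changes was 2.77 ± 0.42 (SE; adjusted p = 0.000979). Lum was at 1.65, 7.82 and 2.63 FPKM in PAD4 knockout kidneys, against 9.57, 9.65 and 21.7 FPKM in wild-type kidneys, a change of -1.64 ± 0.38 (SE; adjusted p = 0.00612). Lum in the IL-33 set was near the lower limit of the test, at 1.06, 0.538 and 1.39 FPKM in labelled IL-33 knockout kidneys, against 0.287, 0.0617 and 0.246 FPKM in wild-type kidneys, a change of 0.72 ± 0.18 (SE; adjusted p = 0.0163), with a difference of both changes of 2.35 ± 0.52 (SE; adjusted p = 0.00925). Lum missed the PAD4 threshold without wild-type library 1 or 3 (adjusted p = 0.0605 and 0.0748, in that order). Lum missed the labelled IL-33 threshold without labelled IL-33 knockout library 1 (adjusted p = 0.0578). Bgn was at 28, 26.6 and 32.4 FPKM in labelled IL-33 knockout kidneys, against 12.1, 11.1 and 20.7 FPKM in wild-type kidneys, a change of 0.98 ± 0.21 (SE; adjusted p = 0.00928). Bgn in the PAD4 set was at 14.2, 27.5 and 36.2 FPKM in PAD4 knockout kidneys, against 27.0, 73.4 and 17.3 FPKM in wild-type kidneys, with overlap and a change of -0.41 ± 0.44 (SE; adjusted p = 0.573) that turned positive without wild-type library 2.

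Elastic fibres consist of elastin on a fibrillin scaffold, to which fibulins are added. Fbln1 was at 1.07, 3.70 and 3.25 FPKM in PAD4 knockout kidneys, against 4.33, 5.74 and 7.36 FPKM in wild-type kidneys, a change of -0.95 ± 0.30 (SE; adjusted p = 0.0306). Fbln1 in the IL-33 set was at 4.05, 2.48 and 4.45 FPKM in labelled IL-33 knockout kidneys, against 0.671, 0.519 and 1.55 FPKM in wild-type kidneys, a change of 1.30 ± 0.24 (SE; adjusted p = 0.00482). The difference for Fbln1 was 2.25 ± 0.42 (SE; adjusted p = 0.00328). Fbln1 missed the PAD4 threshold without PAD4 knockout library 1, or wild-type library 1 or 3 (adjusted p = 0.215, 0.0824 and 0.151, in that order). Fbln5, needed to assemble elastic fibres, was at 13.7, 12.3 and 18.6 FPKM in labelled IL-33 knockout kidneys, against 5.45, 5.40 and 8.50 FPKM in wild-type kidneys, a change of 1.10 ± 0.20 (SE; adjusted p = 0.00446). Fbln5 in the PAD4 set was at 5.84, 8.09 and 17.8 FPKM in PAD4 knockout kidneys, against 8.34, 30.2 and 4.28 FPKM in wild-type kidneys, with wild-type library 2 highest and wild-type library 3 lowest of the 6, and a change of -0.13 that turned positive without wild-type library 2 or knockout library 1. Fbn1, fibrillin 1, was at 0.553, 1.22 and 1.24 FPKM in PAD4 knockout kidneys, against 1.75, 4.05 and 1.79 FPKM in wild-type kidneys, a change of -0.78 ± 0.25 (SE; adjusted p = 0.0346). Fbn1 missed the PAD4 threshold without PAD4 knockout library 1, or wild-type library 1, 2 or 3 (adjusted p = 0.131, 0.0768, 0.218 and 0.0578, in that order). Fbn1 in the IL-33 set was at 1.16, 1.17 and 1.80 FPKM in labelled IL-33 knockout kidneys, against 0.907, 0.702 and 1.28 FPKM in wild-type kidneys, and did not pass (0.27, adjusted p = 0.216). Its difference of 1.05 ± 0.32 (SE; adjusted p = 0.0477) was the weakest of the 19, with an adjusted p of at most 0.120 and at least 0.0324 when single libraries were left out, and over 0.05 without PAD4 knockout library 1, wild-type library 2 of the PAD4 set, any labelled IL-33 knockout library, or wild-type library 1 or 2 of the IL-33 set. Eln, elastin itself, was lower without overlap in both sets but passed in neither. It was at 1.25, 1.94 and 1.5 FPKM in PAD4 knockout kidneys, against 2.35, 2.64 and 4.78 FPKM in wild-type kidneys (-0.70, adjusted p = 0.0503), and at 1.32, 1.89 and 1.92 FPKM in labelled IL-33 knockout kidneys, against 3.00, 2.46 and 2.00 FPKM in wild-type kidneys (-0.36, adjusted p = 0.0997). Eln passed the PAD4 threshold without PAD4 knockout library 2 or wild-type library 2 (adjusted p = 0.0169 and 0.0448, in that order). The PAD4 change of Eln was -0.46 (adjusted p = 0.192) without wild-type library 3. Eln passed the labelled IL-33 threshold without wild-type library 3 (adjusted p = 0.0472).

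Fibronectin, Fn1, is the first scaffold onto which collagen is laid. Fn1 was at 1.56, 4.88 and 3.46 FPKM in PAD4 knockout kidneys, against 5.78, 10.1 and 10.3 FPKM in wild-type kidneys, a change of -1.22 ± 0.31 (SE; adjusted p = 0.00978). Fn1 in the IL-33 set was at 4.11, 4.15 and 5.12 FPKM in labelled IL-33 knockout kidneys, against 1.51, 1.32 and 1.83 FPKM in wild-type kidneys, a change of 1.09 ± 0.13 (SE; adjusted p = 0.000700). The difference for Fn1 was 2.31 ± 0.37 (SE; adjusted p = 0.00143). Fn1 missed the PAD4 threshold without wild-type library 3 (adjusted p = 0.0736). Sparc, a collagen-binding matricellular protein, was at 15.7, 39.6 and 29.5 FPKM in PAD4 knockout kidneys, against 50.6, 104 and 66.5 FPKM in wild-type kidneys, a change of -1.38 ± 0.37 (SE; adjusted p = 0.0147). Sparc in the IL-33 set was at 42.1, 47.7 and 53.6 FPKM in labelled IL-33 knockout kidneys, against 27.1, 25.1 and 42.6 FPKM in wild-type kidneys. There the lowest labelled knockout lay just under the highest wild type, and the change of 0.61 ± 0.20 (SE; adjusted p = 0.0405) was close to the threshold. Sparc missed the PAD4 threshold without wild-type library 1, 2 or 3 (adjusted p = 0.0560, 0.0652 and 0.0686, in that order). Sparc missed the labelled IL-33 threshold without labelled IL-33 knockout library 1, 2 or 3, or wild-type library 1 or 2 (adjusted p = 0.0605, 0.0981, 0.130, 0.112 and 0.107, in that order). The difference for Sparc was 1.99 ± 0.46 (SE; adjusted p = 0.0110), and it kept its call without any single library.

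Periostin, Postn, which is induced in injured kidney stroma, was at 0.565, 1.99 and 1.40 FPKM in PAD4 knockout kidneys, against 2.68, 3.00 and 6.20 FPKM in wild-type kidneys, a change of -1.08 ± 0.28 (SE; adjusted p = 0.0114). Postn missed the PAD4 threshold without wild-type library 1 or 3 (adjusted p = 0.0514 and 0.0858, in that order). Mgp, the matrix Gla protein that inhibits calcification, was among the members with the highest level. It was at 49.1, 44.1 and 57.6 FPKM in labelled IL-33 knockout kidneys, against 30.0, 19.5 and 42.5 FPKM in wild-type kidneys, a change of 0.75 ± 0.25 (SE; adjusted p = 0.0476). Mgp missed the labelled IL-33 threshold without labelled IL-33 knockout library 1, 2 or 3, or wild-type library 1 or 2 (adjusted p = 0.105, 0.0727, 0.142, 0.0949 and 0.0765, in that order). Mgp in the PAD4 set was at 11.8, 37.8 and 34.5 FPKM in PAD4 knockout kidneys, against 38.8, 105 and 33.4 FPKM in wild-type kidneys, with overlap and a change of -1.01 ± 0.44 (SE; adjusted p = 0.126). Mgp passed the PAD4 threshold without PAD4 knockout library 2 (adjusted p = 0.00365). Without wild-type library 2 the PAD4 change of Mgp was -0.51 (adjusted p = 0.520). The difference of both changes for Mgp passed without PAD4 knockout library 2 (2.05, adjusted p = 0.0300).

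Lysyl oxidase, Lox, which cross-links collagen and elastin, was lower in both knockouts and did not follow the fibrillar collagens in the IL-33 set. Lox was at 0.432, 1.83 and 0.767 FPKM in PAD4 knockout kidneys, against 7.04, 13.9 and 6.34 FPKM in wild-type kidneys, a change of -2.31 ± 0.30 (SE; adjusted p = 0.000100). Lox in the IL-33 set was at 0.565, 0.630 and 0.636 FPKM in labelled IL-33 knockout kidneys, against 4.16, 3.06 and 3.14 FPKM in wild-type kidneys, a change of -1.46 ± 0.13 (SE; adjusted p = 0.000203). The groups were far apart in both sets, and both calls held when any single library was left out. The difference of both changes was 0.85 ± 0.37 (SE; adjusted p = 0.152) and did not pass, except without PAD4 knockout library 2 (1.13, adjusted p = 0.0296). The ratio of Lox to Col1a1, also chosen after its values were seen, was 0.0920, 0.145 and 0.102 in PAD4 knockout kidneys, against 0.403, 0.657 and 0.173 in wild-type kidneys. In the IL-33 set this ratio was 0.0618, 0.0668 and 0.0535 in labelled IL-33 knockout kidneys, against 2.52, 2.25 and 0.898 in wild-type kidneys. In both sets every knockout library had a lower ratio than any wild type. Loxl1, which acts mainly on elastin, was at 2.12, 5.93 and 5.60 FPKM in PAD4 knockout kidneys, against 9.97, 25.8 and 6.63 FPKM in wild-type kidneys, a change of -1.32 ± 0.39 (SE; adjusted p = 0.0237), and at 4.98, 4.24 and 6.12 FPKM in labelled IL-33 knockout kidneys, against 6.88, 6.22 and 9.58 FPKM in wild-type kidneys, a change of -0.48 ± 0.18 (SE; adjusted p = 0.0667). Loxl1 missed the PAD4 threshold without wild-type library 1 or 2 (adjusted p = 0.124 and 0.0998, in that order). Loxl1 passed the labelled IL-33 threshold without wild-type library 2 (adjusted p = 0.0462). Its change there was -0.31 (adjusted p = 0.138) without wild-type library 3.

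The growth factors Tgfb1 and Ccn2, which drive matrix production, fell in labelled IL-33 knockouts, where the fibrillar collagens rose, and Tgfb1 fell in PAD4 knockouts, where 4 of the 5 fell too. Tgfb1, TGF-beta 1, was at 0.691, 1.81 and 0.949 FPKM in PAD4 knockout kidneys, against 2.70, 4.21 and 2.14 FPKM in wild-type kidneys, a change of -0.90 ± 0.24 (SE; adjusted p = 0.0147). Tgfb1 in the IL-33 set was at 2.23, 2.02 and 2.60 FPKM in labelled IL-33 knockout kidneys, against 3.70, 2.99 and 5.11 FPKM in wild-type kidneys, a change of -0.57 ± 0.17 (SE; adjusted p = 0.0332). The groups did not overlap in either set, but both calls were lost in several of the fits with 1 library left out. Tgfb1 missed the PAD4 threshold without PAD4 knockout library 1, or wild-type library 1 or 2 (adjusted p = 0.0503, 0.0745 and 0.0591, in that order). Tgfb1 missed the labelled IL-33 threshold without labelled IL-33 knockout library 1, 2 or 3, or wild-type library 1 (adjusted p = 0.0987, 0.112, 0.0627 and 0.0566, in that order). Ccn2, connective tissue growth factor, a target of TGF-beta and YAP, was at 14.9, 18.9 and 17.9 FPKM in labelled IL-33 knockout kidneys, against 26.7, 44.8 and 42.8 FPKM in wild-type kidneys, a change of -1.07 ± 0.20 (SE; adjusted p = 0.00462), and kept its call without any single library. Ccn2 in the PAD4 set was at 5.61, 12.0 and 12.0 FPKM in PAD4 knockout kidneys, against 16, 106 and 8.77 FPKM in wild-type kidneys. Wild-type library 2 alone stood far above, and the change of -1.33 ± 0.57 (SE; adjusted p = 0.117) did not pass. Ccn2 passed the PAD4 threshold without PAD4 knockout library 1, 2 or 3 (adjusted p = 0.0224, 0.000245 and 0.0497, in that order). Its change without PAD4 knockout library 1 was smaller, at -1.01, although it passed. Ccn2 changed by -0.31 (adjusted p = 0.699) without wild-type library 2 and by -2.04 (adjusted p = 0.0586) without wild-type library 3.

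Pdgfra and Pdgfrb are receptors for platelet-derived growth factors on fibroblasts, and on pericytes and mesangial cells. Pdgfra was at 0.906, 2.00 and 1.60 FPKM in PAD4 knockout kidneys, against 5.44, 9.21 and 3.80 FPKM in wild-type kidneys, a change of -1.47 ± 0.28 (SE; adjusted p = 0.00145). Pdgfra in the IL-33 set was at 3.59, 2.19 and 3.15 FPKM in labelled IL-33 knockout kidneys, against 2.64, 1.66 and 3.93 FPKM in wild-type kidneys, with overlapping groups and a change of 0.12 ± 0.24 (SE; adjusted p = 0.726). The difference for Pdgfra was 1.59 ± 0.39 (SE; adjusted p = 0.0162). Pdgfrb was at 3.77, 9.28 and 6.85 FPKM in PAD4 knockout kidneys, against 12.9, 29.0 and 6.73 FPKM in wild-type kidneys (-1.02, adjusted p = 0.0811), and at 7.15, 6.90 and 8.86 FPKM in labelled IL-33 knockout kidneys, against 10.7, 8.37 and 16.2 FPKM in wild-type kidneys (-0.52, adjusted p = 0.0915). Its groups overlapped in both sets. Pdgfrb passed the PAD4 threshold without PAD4 knockout library 2 or wild-type library 3 (adjusted p = 0.00109 and 0.0411, in that order). Without wild-type library 2 the PAD4 change of Pdgfrb was -0.51 (adjusted p = 0.414). Pdgfrb passed the labelled IL-33 threshold without wild-type library 2 (adjusted p = 0.0268). There it changed by -0.28 (adjusted p = 0.173) without wild-type library 3.

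Mmp2, a gelatinase that cleaves denatured collagen and type IV collagen, was at 1.00, 2.45 and 1.79 FPKM in PAD4 knockout kidneys, against 6.26, 4.68 and 11.5 FPKM in wild-type kidneys, a change of -1.58 ± 0.29 (SE; adjusted p = 0.00128), and kept that call without any single library. Mmp2 in the IL-33 set was at 0.951, 1.30 and 2.00 FPKM in labelled IL-33 knockout kidneys, against 0.385, 0.346 and 0.547 FPKM in wild-type kidneys, a change of 0.74 ± 0.17 (SE; adjusted p = 0.0118). The difference for Mmp2 was 2.32 ± 0.37 (SE; adjusted p = 0.00136). Timp2, an inhibitor that also takes part in activating the Mmp2 protein, was at 5.77, 7.95 and 7.2 FPKM in PAD4 knockout kidneys, against 12.8, 19.6 and 20.3 FPKM in wild-type kidneys, a change of -1.20 ± 0.28 (SE; adjusted p = 0.00674). Timp2 in the IL-33 set was at 14.2, 13.3 and 13.9 FPKM in labelled IL-33 knockout kidneys, against 7.82, 5.86 and 15.4 FPKM in wild-type kidneys, with wild-type library 3 above the labelled knockouts and a change of 0.57 ± 0.28 (SE; adjusted p = 0.149). The difference for Timp2 was 1.77 ± 0.38 (SE; adjusted p = 0.00779). Timp3, an inhibitor bound to the matrix, had the highest level of the members in the IL-33 set, at 151, 98.9 and 125 FPKM in labelled IL-33 knockout kidneys, against 76.7, 78.2 and 134 FPKM in wild-type kidneys (0.40, adjusted p = 0.214). Timp3 in the PAD4 set was at 24.9, 24.2 and 21.5 FPKM in PAD4 knockout kidneys, against 30.4, 67.5 and 17.9 FPKM in wild-type kidneys (-0.49, adjusted p = 0.426), with overlap in both. Timp2 and Timp3 passed the labelled IL-33 threshold without wild-type library 3 (adjusted p = 0.00376 and 0.0285).

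Markers of the cells that make matrix moved beside these genes only in part. In the PAD4 set the 10 smooth muscle markers summed to 83.2 to 301 FPKM in PAD4 knockout kidneys and 433 to 922 FPKM in wild-type kidneys, and 9 of 10 fell. The 8 fibroblast markers summed to 6.84 to 18.0 FPKM in PAD4 knockout kidneys and 21.2 to 37.1 FPKM in wild-type kidneys, and 2 of the 6 tested fell. Pericyte and mesangial markers summed to 12.5 to 27.4 FPKM in PAD4 knockout kidneys and 17.5 to 27.9 FPKM in wild-type kidneys, and endothelial markers to 18.6 to 45.0 FPKM in PAD4 knockout kidneys and 30.0 to 109.9 FPKM in wild-type kidneys, with 0 of 8 and 0 of 9 passing limma. All 15 tested colon markers and 9 of 11 tested lung markers fell. Of all genes tested in the PAD4 set, 8.79% fell and 8.89% rose. The 5 fibrillar collagens together summed to 16.9 to 42.5 FPKM in PAD4 knockout kidneys and 53.6 to 109 FPKM in wild-type kidneys, again lower without overlap, as were the colon, lung, smooth muscle and fibroblast sums. The part of colon, lung, smooth muscle and fibroblast RNA in the PAD4 results cannot be told apart from that of the knockout, and that of pericytes and endothelium was not tested.

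In the IL-33 set the fibroblast markers summed to 16.6 to 22.0 FPKM in labelled IL-33 knockout kidneys and 6.36 to 14.2 FPKM in wild-type kidneys, with 2 of the 6 tested higher. Of all genes tested in the IL-33 set, 22.2% rose and 16.8% fell. The pericyte and mesangial markers summed to 129.5 to 182 FPKM in labelled IL-33 knockout kidneys and 67.1 to 70.9 FPKM in wild-type kidneys, with 5 of 8 higher and no overlap. Smooth muscle markers summed to 72.8 to 84.1 FPKM in labelled IL-33 knockout kidneys and 49.3 to 70.0 FPKM in wild-type kidneys, with 1 of the 6 tested higher, and endothelial markers to 124 to 169 FPKM in labelled IL-33 knockout kidneys and 71.4 to 162 FPKM in wild-type kidneys, with 0 of 9 passing limma. The fibrillar collagens summed to 31.6 to 38.6 FPKM in labelled IL-33 knockout kidneys and 6.68 to 12.5 FPKM in wild-type kidneys. Sums of the fibrillar collagens, fibroblast markers and smooth muscle markers were higher in the labelled knockouts without overlap. The 6 adipose markers ran the other way, at 1.00 to 3.57 FPKM in labelled IL-33 knockout kidneys and 20.0 to 37.9 FPKM in wild-type kidneys, with 2 of the 3 tested lower and no overlap. None of the fibroblast, pericyte, smooth muscle or endothelial markers was at 0 in all libraries of either set, and the part of changed cell numbers in the matrix results was not tested.

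**Figure D4:**
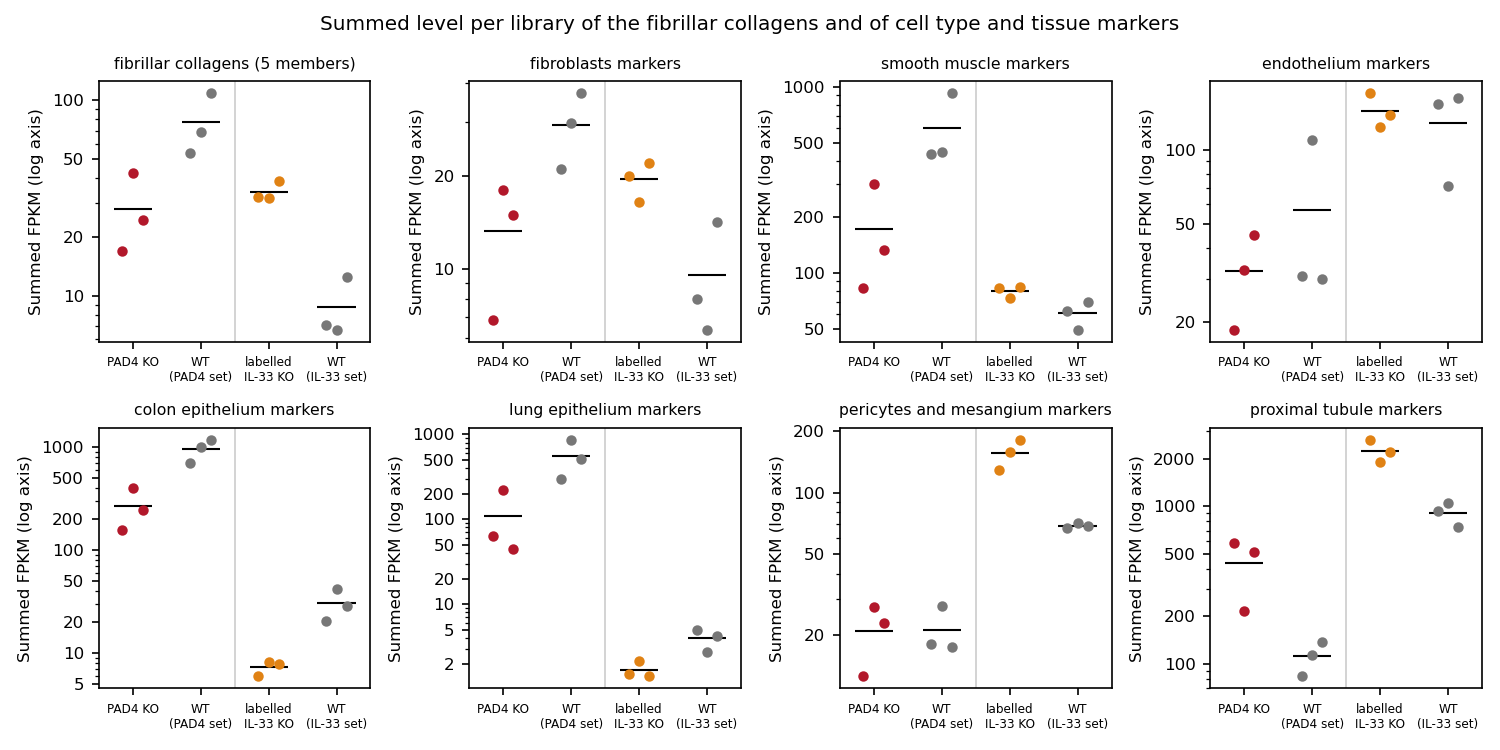
Summed FPKM in each library (log axis, 1 point a library, line at the group mean) of the 5 fibrillar collagens and of marker lists of 7 cell types and tissues in the 4 groups. The fibrillar collagens, fibroblast, smooth muscle, colon and lung lists were all lower in PAD4 knockouts, and in labelled IL-33 knockouts the fibrillar collagens, fibroblast and pericyte and mesangium lists were higher while the colon and lung lists were lower.

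Other genes of the matrix, in 8 lists holding 160 genes, were counted in the same fits. Of all genes tested, 8.89% rose and 8.79% fell in PAD4 knockouts, and 22.2% rose and 16.8% fell in labelled IL-33 knockouts. Of 14 tested proteoglycan and elastic fibre genes, 8 fell and 0 rose in PAD4 knockouts, and of 11 tested, 7 rose and 0 fell in labelled IL-33 knockouts. Mfap2, a microfibril protein, was at 0.693, 1.90 and 1.39 FPKM in PAD4 knockout kidneys, against 4.51, 4.75 and 7.14 FPKM in wild-type kidneys, a change of -1.49 ± 0.25 (SE; adjusted p = 0.000696), and further changes there were -1.03 (adjusted p = 0.00245) for Fbln2 and -1.45 (adjusted p = 0.00556) for Mfap4, both elastic fibre genes. Ogn, the fibril-associated proteoglycan mimecan, was at 5.65, 4.36 and 6.44 FPKM in labelled IL-33 knockout kidneys, against 0.786, 0.990 and 1.43 FPKM in wild-type kidneys, a change of 1.65 ± 0.17 (SE; adjusted p = 0.000358), with 1.32 (adjusted p = 0.000421) for Fmod and 1.62 (adjusted p = 0.000618) for Prelp, 2 other proteoglycans of its family. Among 13 matricellular genes 7 fell and 0 rose in PAD4 knockouts, and among 12 in the IL-33 set 1 rose and 2 fell. The PAD4 changes with the smallest adjusted p by limma were -2.02 (adjusted p = 0.00131) for Sparcl1, -1.04 (adjusted p = 0.00153) for Ccn3 and -1.14 (adjusted p = 0.00196) for Tnc. In labelled IL-33 knockouts Fstl1 rose and Ccn1 and Spp1 fell. Ccn1, like Ccn2 a target of YAP, was at 7.61, 13.9 and 16.4 FPKM in labelled IL-33 knockout kidneys, against 53.3, 57.7 and 71.7 FPKM in wild-type kidneys, a change of -2.24 ± 0.25 (SE; adjusted p = 0.000516). Spp1, osteopontin, was at 1335, 1587 and 2593 FPKM in labelled IL-33 knockout kidneys, against 6348, 7004 and 7870 FPKM in wild-type kidneys, a change of -2.00 ± 0.24 (SE; adjusted p = 0.000655).

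Laminins and other basement membrane genes were mixed, with 3 of 17 higher and 4 lower in PAD4 knockouts and 9 of 17 higher and 3 lower in labelled IL-33 knockouts. The shares of all genes were 8.89% higher and 8.79% lower in PAD4 knockouts, and 22.2% and 16.8% in labelled IL-33 knockouts. Tinag, a tubular basement membrane antigen, rose in both. It was at 9.97, 5.29 and 6.46 FPKM in PAD4 knockout kidneys, against 2.02, 2.70 and 2.93 FPKM in wild-type kidneys, a change of 1.18 ± 0.26 (SE; adjusted p = 0.00421), and at 48.9, 39.5 and 44.1 FPKM in labelled IL-33 knockout kidneys, against 13.6, 16.3 and 13.5 FPKM in wild-type kidneys, a change of 1.55 ± 0.12 (SE; adjusted p = 0.000101). Lama5, the laminin alpha 5 chain of the mature glomerular basement membrane, changed by -1.32 (adjusted p = 0.000816) in labelled IL-33 knockouts, and Npnt, a basement membrane ligand of integrin alpha 8, by 1.61 (adjusted p = 0.000203). Among the other collagens 1 rose and 1 fell of 9 tested in PAD4 knockouts, and 2 rose and 1 fell of 5 in labelled IL-33 knockouts. The PAD4 changes were 1.29 (adjusted p = 0.00373) for Col27a1 and -1.93 (adjusted p = 0.000983) for Col6a4, and those in labelled IL-33 knockouts -1.55 (adjusted p = 0.00237) for Col13a1, 0.46 (adjusted p = 0.0167) for Col23a1 and 0.63 (adjusted p = 0.0311) for Col16a1. Of the enzymes that fold, hydroxylate and cross-link collagen, 1 of 18 rose and 3 fell in PAD4 knockouts, and 8 of 19 rose and 1 fell in labelled IL-33 knockouts. P3h2, a prolyl 3-hydroxylase that acts on type IV collagen, rose in both, by 1.08 ± 0.29 (SE; adjusted p = 0.0147) in PAD4 knockouts and by 2.02 ± 0.17 (SE; adjusted p = 0.000180) in labelled IL-33 knockouts. Adamts2 and Bmp1, which cleave procollagen ends, changed by -1.0 (adjusted p = 0.00384) and -0.93 (adjusted p = 0.00628) in PAD4 knockouts. Pcolce, which enhances that cleavage, changed by 1.30 (adjusted p = 0.000399) in labelled IL-33 knockouts, and the prolyl 4-hydroxylase chain P4ha1 by 1.35 (adjusted p = 0.00109).

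Proteases and inhibitors fell in PAD4 knockouts in 12 of 18 cases, with 1 higher, and split 4 higher to 4 lower of 15 in labelled IL-33 knockouts. All genes tested gave 8.89% higher and 8.79% lower in PAD4 knockouts, and 22.2% higher and 16.8% lower in labelled IL-33 knockouts. Mmp7, the epithelial metalloproteinase matrilysin, was at 0, 0.0875 and 0 FPKM in labelled IL-33 knockout kidneys, against 2.92, 4.12 and 4.33 FPKM in wild-type kidneys, a change of -2.21 ± 0.15 (SE; adjusted p = 6.21e-05). In PAD4 knockouts the limma changes were -1.67 (adjusted p = 0.000369) for Mmp14 and -1.92 (adjusted p = 0.000429) for Mmp11, and 1.74 (adjusted p = 0.00143) for Plau, the urokinase gene that rose. Of the TGF-beta and PDGF genes 0 of 18 rose and 2 fell in PAD4 knockouts, and 2 of 18 rose and 7 fell in labelled IL-33 knockouts. The 2 that fell in PAD4 knockouts were the ligand Tgfb3, with a change of -0.77 (adjusted p = 0.0138), and the co-receptor Tgfbr3, with one of -0.89 (adjusted p = 0.0150). Labelled IL-33 knockouts gave -1.16 (adjusted p = 0.000498) for Tgfbr1, -1.37 (adjusted p = 0.000995) for Pdgfa and 0.80 (adjusted p = 0.00132) for Pdgfc. Of the matrix receptors 1 of 16 rose and 5 fell in PAD4 knockouts, and 7 of 15 rose and 1 fell in labelled IL-33 knockouts. Itgb8, the integrin chain that activates latent TGF-beta, was at 12.2, 11.3 and 10.3 FPKM in labelled IL-33 knockout kidneys, against 3.51, 4.08 and 5.04 FPKM in wild-type kidneys, a change of 1.24 ± 0.13 (SE; adjusted p = 0.000421), beside 1.51 (adjusted p = 0.00119) for Itgb6 and 0.88 (adjusted p = 0.00206) for Itga1. Integrin chains Itgb3 and Itga5 and the collagen receptor Ddr2 changed by -0.94 (adjusted p = 0.00178), -1.18 (adjusted p = 0.00380) and -0.79 (adjusted p = 0.0172) in PAD4 knockouts.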

How the data were processed

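Poly(A) strand-specific libraries of 12 kidneys were sequenced on an Illumina NovaSeq instrument, per the labels' protocols. The authors deposited FPKM values in 1 table for each knockout with its wild type. The submitters' processing notes name cutadapt, HISAT2 and StringTie, without roles. The genome build and annotation were not given in the sources used here. Columns of the second table's wild types carry no set name and were assigned by elimination. Gene IDs were named from a GENCODE mouse table (30212 of 32199 and 29690 of 31719 IDs matched). Genes with a mean of at least 0.5 FPKM over the 6 libraries of a table were fitted as log2(FPKM + 1) with limma 3.58.1 (trend) in R 4.3.3, two-sided, and adjusted over all genes tested. An exact permutation test of 3 against 3 cannot go below p = 0.1, so none is given. Labels do not say whether animals were littermates, and p-values measure the spread between these kidneys. Depth is unknown, so no counting intervals are given.

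The members and all lists were chosen with earlier results of these data known. All members are described, and of each other matrix list the up to 3 genes with the smallest adjusted p among those called in a comparison were open to naming; 1 gene is not reported here. Alternatives were other pseudocounts, filters and scalings, no trend, the replicate block, a colon and lung score as a covariate and each library left out. The fits were tested on simulated data.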

Additional observations from a re-analysis of the deposited data

Results flagged for a closer look

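These members are listed because their change in the labelled IL-33 comparison differed from their change in the PAD4 comparison in a limma test of the difference itself, labelled IL-33 minus PAD4 on the log2(FPKM + 1) scale. All 19 differences were positive. The fibrillar collagens gave 3.38 for Col1a1, 3.08 for Col1a2, 3.63 for Col3a1, 1.84 for Col5a1 and 1.10 for Col5a2. Type VI and fibril-associated collagens gave 3.55 for Col6a1, 2.94 for Col6a2, 2.51 for Col6a3 and 1.80 for Col14a1, and the basement membrane zone collagen Col15a1 gave 2.23. Proteoglycans gave 2.77 for Dcn and 2.35 for Lum. Elastic fibre genes gave 1.05 for Fbn1 and 2.25 for Fbln1. The adhesive glycoproteins gave 2.31 for Fn1 and 1.99 for Sparc. Pdgfra gave 1.59, Mmp2 2.32 and Timp2 1.77. The knockout and the batch cannot be told apart in this test, and the colon, lung, smooth muscle and fibroblast marker sums were lower in the PAD4 knockouts.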

How the results depend on the processing

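In the PAD4 comparison the 20 members that fell by limma became 0 without the filter on low values and 0 with the colon and lung score as a covariate, and 10 to 27 when 1 library was left out. The 2 that rose became 1 with a pseudocount of 0.1, 0 without the filter, 0 without the trend, 0 with the covariate, 0 with the replicate block, and 0 to 2 when 1 library was left out. In the labelled IL-33 comparison the 22 that rose stayed between 17 and 25 under every alternative run, while the 5 that fell became 2 without the filter, 3 after TPM scaling and 2 to 7 when 1 library was left out. The 19 positive differences stayed between 14 and 24, and 0 members had a negative one, under every alternative run. Of the 22 members called in the PAD4 comparison, 15 kept their call after median-of-ratios scaling, 16 after quantile normalization and 16 without the trend. Depth is unknown, so no counting error can be set beside low FPKM values.

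The replicate numbers in the labels are shared between groups but do not pair the samples, since the correlations of same-numbered deviations were -0.016, -0.11 and -0.15 in the PAD4 set and -0.014, 0.13 and -0.0017 in the IL-33 set, and not every sample correlated best with its own number. With the number as a replicate block, 21 members fell and 0 rose in PAD4 knockouts, 23 rose and 7 fell in labelled IL-33 knockouts, and 24 differences were positive.

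Single members whose sign turned were these. With the covariate the PAD4 change was 0.0029 for Col1a2, 0.17 for Col3a1, 0.14 for Col5a1, 0.0083 for Col4a2, 0.94 for Col15a1, 0.31 for Col6a3, 0.47 for Col14a1, 0.20 for Nid1, 0.19 for Lamb1, 0.17 for Lum, 0.66 for Bgn, 0.22 for Fbln1, 0.51 for Fbln5, 0.19 for Fn1, 0.17 for Sparc, 0.78 for Mgp, 0.016 for Loxl1, 0.36 for Ccn2 and 0.24 for Pdgfrb, none past the threshold, and the cause was not tested. After TPM scaling it was 0.0059 for Lamb1. The labelled IL-33 change was -0.040 for Lamb1 after median-of-ratios scaling and -0.038 for Col12a1 after quantile normalization. The difference was -0.048 for Col4a4 with a pseudocount of 0.1 and -0.020 for Lamb1 after median-of-ratios scaling. With 1 library left out, the PAD4 change ran over -0.37 to 0.15 for Col15a1, -0.70 to 0.59 for Fbln5, -0.17 to 0.21 for Lamb1, -0.54 to 0.21 for Col14a1, -0.85 to 0.16 for Bgn and -0.92 to 0.0083 for Timp3. The labelled IL-33 change ran over -0.25 to 0.37 for Nid1, -0.013 to 0.16 for Lamb1, -0.11 to 0.34 for Pdgfra and -0.24 to 0.018 for Col18a1. The difference ran over -0.76 to 0.97 for Ccn2, -0.22 to 0.35 for Col4a4, -0.069 to 1.01 for Col4a2, -0.16 to 0.22 for Lamb1 and -0.011 to 0.97 for Pdgfrb. Of these changes, only those of Col1a2, Col3a1, Col5a1, Col6a3, Lum, Fbln1, Fn1, Sparc and Loxl1 in the PAD4 comparison had passed as reported.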

Other observations

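Among 109 other matrix genes tested in both tables, 4 rose in both knockouts, 4 fell in both, 8 fell in PAD4 knockouts and rose in labelled IL-33 knockouts, and 0 did the reverse by limma. Of all genes tested in both tables, 5.03% rose in both, 2.10% fell in both, 0.968% fell in PAD4 knockouts and rose in labelled IL-33 knockouts and 0.50% did the reverse. Of the 109, 3.67% thus rose in both, 3.67% fell in both and 7.34% fell in PAD4 knockouts and rose in labelled IL-33 knockouts. The 4 that rose in both, a share under that of all genes, were Lama1, Tinag, P3h2 and Itgb8. Lama1, the laminin alpha 1 chain of tubular basement membrane, was at 2.03, 1.55 and 1.06 FPKM in PAD4 knockout kidneys, against 0.170, 0.339 and 0.237 FPKM in wild-type kidneys, a limma change of 1.01 ± 0.18 (SE; adjusted p = 0.00120), and at 1.57, 1.49 and 1.64 FPKM in labelled IL-33 knockout kidneys, against 0.439, 0.672 and 0.719 FPKM in wild-type kidneys, a change of 0.68 ± 0.12 (SE; adjusted p = 0.00349). Those that fell in both included Mmp7, Adamts4 and the integrin chain Itgb3. Mmp7 was at 0.422, 2.59 and 0.384 FPKM in PAD4 knockout kidneys, against 3.09, 2.61 and 5.39 FPKM in wild-type kidneys, a limma change of -1.25 ± 0.31 (SE; adjusted p = 0.00913).

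The 8 with opposite changes were Smoc2, Ogn, Mfap2, Ltbp1, Ltbp4, Fstl1, Mmp11 and the collagen receptor Ddr2. Ogn was at the threshold in PAD4 knockouts, with a limma change of -0.98 ± 0.33 (SE; adjusted p = 0.0496). It was at 3.55, 9.67 and 6.67 FPKM there, against 8.75, 13.5 and 19.2 FPKM in wild-type kidneys, with overlapping groups. Smoc2, a matricellular protein of fibroblasts, was at 0.978, 2.28 and 1.43 FPKM in PAD4 knockout kidneys, against 4.03, 4.68 and 5.60 FPKM in wild-type kidneys, a limma change of -1.19 ± 0.24 (SE; adjusted p = 0.00231). In the IL-33 set Smoc2 was at 3.77, 3.13 and 3.48 FPKM in labelled IL-33 knockout kidneys, against 0.684, 0.574 and 2.11 FPKM in wild-type kidneys, a change of 1.14 ± 0.25 (SE; adjusted p = 0.00986), and the difference of both changes was 2.33 ± 0.34 (SE; adjusted p = 0.000796). For Fstl1, a secreted glycoprotein of mesenchyme, the limma changes were -1.26 ± 0.28 (SE; adjusted p = 0.00431) in PAD4 knockouts and 1.04 ± 0.17 (SE; adjusted p = 0.00274) in labelled IL-33 knockouts. These genes were named after their values were seen.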
